A study of Mus musculus with 4 samples.

Results

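Gene expression without DNMT3L in cells sorted as early meiotic germ cells was examined by setting 1 Dnmt3L_KO library against 1 Dnmt3L_Het library of the same line. These are 2 of the 4 libraries of the series and were taken by their genotype label alone. All 23980 genes listed in the deposited table were used. The cells were sorted as spermatocytes of the leptotene and zygotene stages (L/Z spermatocytes) by fluorescence-activated cell sorting (FACS) from mice aged 3 to 4 weeks. Every animal was an F1 hybrid of the strains C57BL6/J and MSM/Ms. The Dnmt3L_Het animal carried 1 mutant allele and was the control of its line; a wild type of that line was not analysed here. The Pld6_WT library and the Pld6_KO library of the other line are given beside the results where they bear on them.

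DNMT3L resembles the DNA methyltransferases but has no catalytic activity of its own. It binds DNMT3A and is needed in fetal prospermatogonia for the de novo methylation of the male germ line, retrotransposons included. Male mice without DNMT3L have active retrotransposons in the germ line, lose their spermatocytes during early meiosis and are sterile. Retrotransposons such as LINE-1 (L1) and the intracisternal A particle (IAP) carry promoters, which can start transcripts that run into a neighboring gene.

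The library labelled Dnmt3L_KO lacked the transcript of the targeted gene. Dnmt3l (chr10:78042287-78063622, mm10) had 101 fragments in Dnmt3L_Het, a level of 1.27 FPKM (fragments per kilobase of transcript, scaled to sequencing depth), and 0 fragments in Dnmt3L_KO, at least 24.6-fold lower if 3 fragments are allowed for a count of 0. It was at 0.98 FPKM in Pld6_WT and 0.432 FPKM in Pld6_KO. Pld6, which encodes a mitochondrial protein of piRNA production, was at 17.2 FPKM in Dnmt3L_Het and 8.55 FPKM in Dnmt3L_KO.

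The libraries held 63875934 fragments in genes for Dnmt3L_Het and 49932330 for Dnmt3L_KO. With 1 library a side there was no replicate, and hence no test; intervals given in parentheses after a fold are 95% exact limits, and bounds written as at least allow 3 fragments for a count of 0; both cover counting error only. Genotype, animal and sort differed together and cannot be told apart. In sorted cells, fewer cells of a type and less RNA per cell cannot be told apart either. The label of L/Z spermatocytes was checked against markers. All 20 measured L/Z markers were detected in both libraries, with summed levels of 2400 FPKM in Dnmt3L_Het and 1434 FPKM in Dnmt3L_KO. Dnmt3L_Het also held 20 of 20 spermatid markers, with a summed level of 7419 FPKM against 54.9 FPKM in Dnmt3L_KO, 326 FPKM in Pld6_WT and 52.2 FPKM in Pld6_KO. Both Dnmt3L libraries held Sertoli cell RNA, with summed levels over 21 markers of 9104 FPKM in Dnmt3L_Het and 12074 FPKM in Dnmt3L_KO against 279 FPKM in Pld6_WT and 704 FPKM in Pld6_KO. In both Dnmt3L libraries this sum was above that of the L/Z markers. The median level of the Sertoli cell markers was 47.0 FPKM in Dnmt3L_Het and 65.3 FPKM in Dnmt3L_KO. That of the L/Z markers was 74.5 and 58.6 FPKM. The Dnmt3L libraries thus held more than the RNA of L/Z spermatocytes. No Sertoli cell marker was at 0 in any of the 4 libraries. The part of these cell types in the results below was not tested.

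Most called genes were lower in Dnmt3L_KO on the deposited FPKM scale. A gene was called higher or lower when log2((FPKM in Dnmt3L_KO + 1)/(FPKM in Dnmt3L_Het + 1)), the log2 ratio, was at least 1 in size and the library with the higher value held at least 20 fragments. Of 17589 genes with at least 20 fragments in either library (the measured genes), 649 (3.69%) were called higher and 1942 (11.0%) were called lower. Chd1, at 9.21 FPKM in Dnmt3L_Het and 19.4 FPKM in Dnmt3L_KO, was the last gene inside the limit for higher genes, and Lats1, at 6.71 and 14.4 FPKM, the first outside it. Ankrd45, at 5.12 and 2.06 FPKM, was the last inside the limit for lower genes. The calls were unequal in size. The lower genes had a median log2 ratio of -2.10, and 326 of them were at -4 or below, whereas the higher genes had a median of 1.19 and 28 of them reached 2. The lower genes took 7.01% of the fragments of Dnmt3L_Het and 1.26% of those of Dnmt3L_KO; the higher genes took 3.07% and 7.26%. The median log2 ratio of all measured genes was 0.04. The direction of the split depended on the reference. Higher genes made up 25% of the calls on the deposited FPKM scale and 74.4% when ratios were centred on the median of the L/Z markers (-0.54), with 3829 genes higher and 1319 lower. The centring moved the median of all measured genes to 0.58. Higher genes made up 58.9% of the calls with Pld6_WT as the control.

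**Figure D1:**
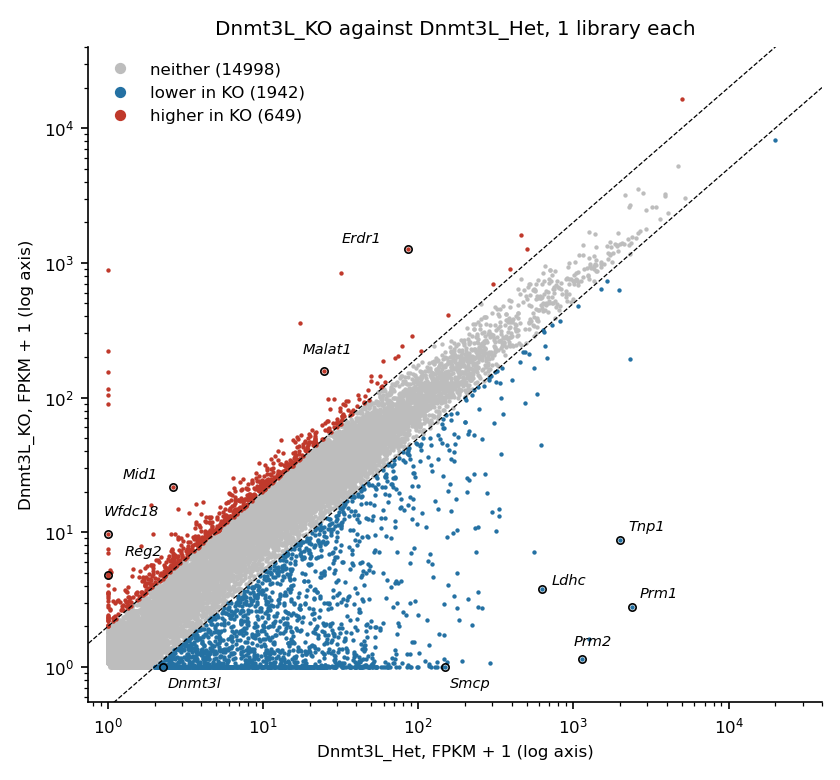
FPKM + 1 of each of the 17589 measured genes in Dnmt3L_Het (horizontal, log axis) and Dnmt3L_KO (vertical, log axis), 1 point per gene, with genes called higher in red, lower in blue and neither in gray. Dashed lines mark a 2-fold difference. The spermatid genes Prm1, Prm2 and Tnp1 stand at the lower right.

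Genes that lie near activated retrotransposons were considered first. The study lists 37 genes with an active retrotransposon copy upstream or inside the gene. It found them more than 3-fold higher in Dnmt3l-deficient spermatocytes of C57BL/6J mice, in libraries other than these. The limit used here was 2-fold with a pseudocount of 1 FPKM, so the counts are not on the scale of the study. The study also reports that MSM/Ms lacks some of these copies. In F1 hybrids it found such genes activated almost only from the C57BL/6J allele. Transcripts joining the element to the gene were not examined here. Of the 37 genes, 33 were measured here, 4 (Reg2, Gc, E330017A01Rik and Olfr1372-ps1) were called higher and 2 (Plac8l1 and Capn11) were called lower, beside 3.69% higher and 11.0% lower of all measured genes. Their median log2 ratio was 0.41, beside 0.04 over all measured genes, and 26 of the 33 ratios were above 0. The remaining 4 genes (Yipf7, Il23r, 2310043L19Rik and Defb15) had fewer than 20 fragments in both libraries. The 4 genes called higher all had a retrotransposon in the sense direction. Of 17 measured genes with the element in sense orientation 4 were called higher and 0 lower, and of 16 with it in antisense orientation 0 were called higher and 2 lower, counts too small to set against those shares; the medians of the log2 ratio were 0.41 for both.

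Reg2, which encodes a secreted protein of the regenerating islet family, had the highest log2 ratio on this list. It is listed with an upstream L1 in sense orientation. Reg2 (chr6:78405155-78408099) had 0 fragments in Dnmt3L_Het and 89 in Dnmt3L_KO (3.83 FPKM), at least 40.6-fold higher. It was at 0 FPKM in Pld6_WT and 14.8 FPKM in Pld6_KO, so both knockout libraries had it and both controls lacked it. Gc, the vitamin D-binding protein of blood plasma, is listed with an L1 inside the gene. Gc (chr5:89417511-89457898) had 0 fragments in Dnmt3L_Het and 170 in Dnmt3L_KO (2.23 FPKM), at least 77.6-fold higher. It was at 0 FPKM in Pld6_WT and 4.96 FPKM in Pld6_KO, the same order of libraries as Reg2. Their log2 ratios in the Dnmt3L line were 2.27 for Reg2 and 1.69 for Gc.

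The annotated promoters of Reg2 and Gc are shown because methylation by the DNMT3A complex falls on CpG dinucleotides. They are RefSeq windows of 300 bases, from 250 bases before to 50 bases after the annotated start (GRCm38.p6, the assembly of mm10), with each CG in capitals. Reg2 lies on the plus strand at chr6:78404905-78405204 and Gc on the minus strand at chr5:89457849-89458148.
Reg2: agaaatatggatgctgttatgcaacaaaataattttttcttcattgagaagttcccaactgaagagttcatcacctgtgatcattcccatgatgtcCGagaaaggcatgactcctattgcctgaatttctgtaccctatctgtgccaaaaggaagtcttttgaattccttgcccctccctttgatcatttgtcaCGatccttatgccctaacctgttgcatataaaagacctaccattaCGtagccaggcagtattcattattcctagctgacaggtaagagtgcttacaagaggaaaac
Gc: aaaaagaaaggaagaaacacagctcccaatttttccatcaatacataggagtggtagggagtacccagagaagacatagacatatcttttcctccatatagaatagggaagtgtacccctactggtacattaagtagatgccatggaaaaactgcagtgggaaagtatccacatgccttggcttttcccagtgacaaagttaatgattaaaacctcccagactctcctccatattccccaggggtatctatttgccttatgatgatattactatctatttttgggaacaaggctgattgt
The Reg2 window held 3 CpGs and the Gc window 0. Over 32851 windows of RefSeq promoters the median was 7, 31.4% held 3 or fewer and 5.43% held 0. The Reg2 window also held TATAAA, the TATA box sequence, in a search of both strands, as did 13.6% of all windows. These windows lie at the annotated starts of the genes; the positions of the retrotransposons were not used here.

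E330017A01Rik and Olfr1372-ps1 were the other genes called higher. E330017A01Rik, listed with an upstream IAP in sense orientation, had 0 fragments in Dnmt3L_Het and 40 in Dnmt3L_KO (1.78 FPKM), at least 18.3-fold higher. Its log2 ratio of 1.47 was under the limit with TMM scaling (0.88) and with median-of-ratios scaling (0.73). Both alternatives replaced FPKM by scaled fragment counts not divided by transcript length, and the pseudocount was added to those. Unit and scaling thus changed together, and the part of the scaling alone was not tested. E330017A01Rik was at 0 FPKM in both libraries of the Pld6 line, which set it apart from Reg2 and Gc. Olfr1372-ps1, an olfactory receptor pseudogene listed with an upstream MERVK or RLTR10 element, was at 1.82 FPKM in Dnmt3L_Het and 5.2 FPKM in Dnmt3L_KO, 2.86-fold higher (2.39 to 3.42). Reads of olfactory receptor genes can be shared among their many copies, so its level is uncertain.

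Other genes of the list had few or no fragments in Dnmt3L_Het and more in Dnmt3L_KO without reaching the limit. Pkhd1, the gene of a ciliary protein mutated in polycystic kidney disease, had 4 fragments in Dnmt3L_Het and 320 in Dnmt3L_KO. Its log2 ratio was 0.61, since its level in Dnmt3L_KO was 0.53 FPKM, and its FPKM was 110-fold higher (42.4 to 405). Afm, which encodes a vitamin E-binding protein of plasma, had 0 and 47 fragments, at least 21.5-fold higher. Cdh19, a cadherin, had 0 and 45 fragments, at least 20.5-fold higher. The pseudocount of 1 FPKM holds such genes under the limit of 2-fold. By class of element, the median log2 ratio was 0.33 for the 20 measured genes near L1, 0.44 for the 8 near IAP and 0.59 for the 4 near MERVK or RLTR10, and the 1 gene near MMERGLN (AK129341) was at -0.76. By position, the 9 measured genes with the element upstream had a median of 0.70, with 3 called higher and 0 lower. The 24 with the element inside the gene had a median of 0.32, with 1 higher and 2 lower. Over all measured genes, 3.69% were called higher and 11.0% lower. The counts by position are too small to set against those shares, and they hold the same called genes as the split by orientation.

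The genes called lower on this list both had an IAP inside the gene in antisense orientation. Plac8l1 was at 13.0 FPKM in Dnmt3L_Het with 472 fragments and had 0 fragments in Dnmt3L_KO, at least 115-fold lower. Capn11, a calpain protease of the testis, was at 4.20 FPKM in Dnmt3L_Het and 0.702 FPKM in Dnmt3L_KO, 5.98-fold lower (4.73 to 7.65). Both were also lower in Pld6_KO than in Pld6_WT, with Plac8l1 at 0 and 6.48 FPKM and Capn11 at 1.26 and 4.00 FPKM.

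**Figure D2:**
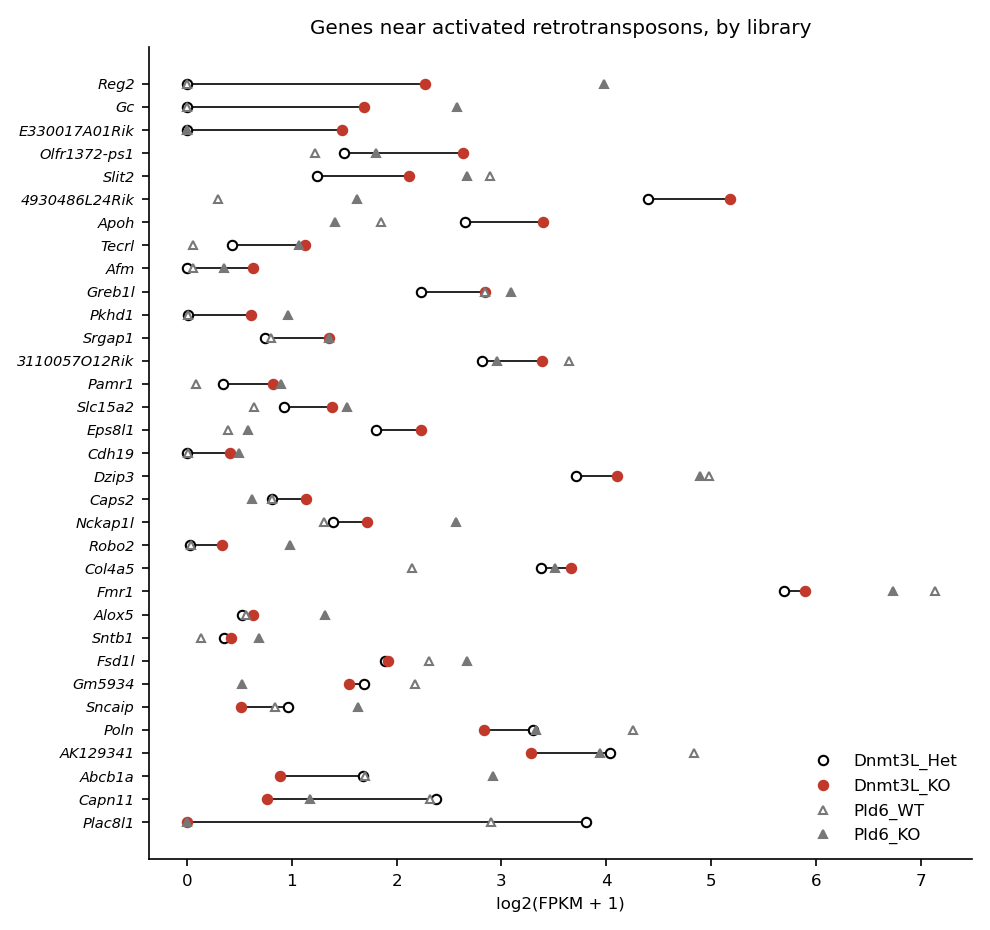
Levels as log2(FPKM + 1) of the 33 measured genes of the retrotransposon list in each of the 4 libraries (open and red circles for Dnmt3L_Het and Dnmt3L_KO, joined by a line; open and gray triangles for Pld6_WT and Pld6_KO). Genes are ordered by the difference between the circles, from 2.27 for Reg2 at the top to -3.80 for Plac8l1 at the bottom.

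Genes of DNA methylation and demethylation were present in both libraries, Dnmt3l excepted. Of 17 measured genes, 2 (Tet2 and Tet3) were called higher and 1, Dnmt3l itself, lower, beside 3.69% higher and 11.0% lower of all measured genes. The median log2 ratio was 0.44, which became -0.15 with Pld6_WT as the control. Tet2 and Tet3 encode dioxygenases that oxidize 5-methylcytosine. Tet2 was at 1.03 FPKM in Dnmt3L_Het and 3.58 FPKM in Dnmt3L_KO, 3.49-fold higher (3.17 to 3.84). Tet3 was at 4.02 and 9.16 FPKM, a log2 ratio of 1.02 that turned to -0.08 with Pld6_WT as the control. Neither call rested on few fragments. Dnmt3a, the catalytic partner of DNMT3L, was at 10.1 and 17.6 FPKM (log2 ratio 0.74), Dnmt3b at 13.4 and 18.6 FPKM (0.44), and the maintenance enzyme Dnmt1 at 40.3 and 56.8 FPKM (0.48). Uhrf1, which guides DNMT1 to newly replicated DNA, was at 36.9 and 36.4 FPKM.

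Of 26 measured genes of the piRNA pathway, 0 were called higher and 4 lower, beside 3.69% higher and 11.0% lower of all measured genes. The list had a median log2 ratio of -0.23 (0.31 when centred on the L/Z markers). The 4 genes called lower were Tdrd6, Piwil1, Gtsf1 and Mael. Tdrd6, a scaffold of the chromatoid body, was at 17.0 FPKM in Dnmt3L_Het and 0.117 FPKM in Dnmt3L_KO, 145-fold lower (106 to 205). Piwil1, the PIWI protein of pachytene spermatocytes and spermatids, was at 16.0 and 1.73 FPKM, 9.24-fold lower (8.23 to 10.4). Both genes are known from pachytene and later stages. Gtsf1 was at 180 and 50.4 FPKM and Mael at 399 and 133 FPKM. The PIWI proteins that act earlier did not pass the limit: Piwil2 was at 45.1 and 52.2 FPKM and Piwil4, which directs DNA methylation in prospermatogonia, at 2.83 and 3.12 FPKM. Pld6 had a log2 ratio of -0.93.

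Of 22 genes of histone H3K9 methylation and KRAB zinc finger silencing, 0 were called higher and 1 lower. Over all measured genes, 3.69% were called higher and 11.0% lower. The list had a median of 0.15 (-0.37 with Pld6_WT as the control). The gene called lower was Morc2b, a MORC family ATPase of meiotic cells. It was at 20.5 FPKM in Dnmt3L_Het and 0.391 FPKM in Dnmt3L_KO, 52.6-fold lower (41.2 to 68.2). Setdb1, the H3K9 methyltransferase of KRAB silencing, was at 47.5 and 55.7 FPKM, and its corepressor Trim28 at 141 and 149 FPKM. Atf7ip, the partner of SETDB1, was at 12.8 and 26.4 FPKM, just under the limit at 0.99. Tex19.1, a protein of retrotransposon control in the germ line, was at 62.6 and 70.0 FPKM.

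Imprinted genes take their parental methylation from the germ line, and the domains methylated on the paternal side depend on DNMT3L in the male. Of 34 measured imprinted genes, 2 were called higher and 1 lower, beside 3.69% higher and 11.0% lower of all measured genes. The list had a median log2 ratio of 0.22 (-0.10 with Pld6_WT as the control). All 3 called genes belong to domains methylated on the maternal side. Peg10, a gene derived from a retrotransposon, was at 20.5 FPKM in Dnmt3L_Het and 53.5 FPKM in Dnmt3L_KO, 2.61-fold higher (2.54 to 2.68). Mest was at 0.748 and 3.1 FPKM, 4.14-fold higher (3.35 to 5.15). Phlda2 was at 4.49 and 1.62 FPKM, 2.78-fold lower (1.96 to 4.02). With Pld6_WT as the control, the log2 ratios were 3.46 for Peg10, 0.20 for Mest and -1.28 for Phlda2, so Mest fell under the limit. Of the 8 measured genes from paternally methylated domains, 0 were called, and their log2 ratios ran from -0.84 to 0.84 with a median of 0.22. These domains include the H19 and Igf2 pair and the cluster of Dlk1, Meg3, Rian and Mirg. H19 was at 6.81 and 7.87 FPKM, Igf2 at 10.8 and 11.9 FPKM, Meg3 at 1.99 and 3.28 FPKM and Rian at 1.22 and 2.96 FPKM. Mirg, from the same cluster as Rian, was at 1.66 and 0.481 FPKM.

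The genes that build meiotic chromosomes were present in both libraries. Of 17 genes of the synaptonemal complex and the chromosome axis, 14 had log2 ratios below 0, and 2 were called lower (Syce3 and Syce1), a share near the 11.0% of all measured genes. The median was -0.48, which became 0.06 when ratios were centred on the L/Z markers. The synaptonemal complex joins homologous chromosomes from the zygotene stage on. Syce3, one of its central element proteins, was at 208 FPKM in Dnmt3L_Het and 53 FPKM in Dnmt3L_KO, 3.92-fold lower (3.60 to 4.28). Syce1 was at 143 and 67.9 FPKM, 2.11-fold lower (2.04 to 2.19). The axis protein Sycp3 was at 559 and 285 FPKM (log2 ratio -0.97), the transverse filament Sycp1 at 167 and 119 FPKM (-0.48), and the cohesin Rec8 at 34.7 and 31.2 FPKM (-0.15). At the other end were the cohesins that somatic cells use as well, Rad21 at 65.5 and 108 FPKM (0.71) and Smc1a (0.55).

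Of 29 recombination genes, 0 were called higher and 4 lower. Over all measured genes, 3.69% were called higher and 11.0% lower, which stands beside each count in this paragraph. The recombination list had a median of -0.32 (0.22 when centred on the L/Z markers) and 21 ratios below 0. Spo11, the enzyme that cuts the DNA to start recombination, was at 21.8 FPKM in Dnmt3L_Het and 8.64 FPKM in Dnmt3L_KO, 2.53-fold lower (2.31 to 2.77). Cntd1 (log2 ratio -1.38), Hsf2bp (-1.33) and Psmc3ip (-1.22), which act in crossover designation and strand exchange, were the others. Dmc1, the meiotic strand exchange recombinase, was at 59.8 and 46.5 FPKM (-0.36), and Prdm9, the methyltransferase that places the breaks, at 19 and 21.1 FPKM (0.15). Brca2 had the highest ratio on this list, 0.63. Of 22 genes of meiotic entry, Dmrtb1 alone was called, at 92.5 and 26.6 FPKM, 3.48-fold lower (3.32 to 3.65). Stra8, the retinoic acid target that starts meiosis, was at 164 and 108 FPKM (-0.60), and Dazl at 323 and 280 FPKM (-0.20). Of 18 spermatogonial markers, 1 was called higher (Gfra1, 1.01) and 2 lower (Dmrtb1 and Nanos3), with a median of 0.18 (-0.70 with Pld6_WT as the control).

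The L/Z markers as a list had a median log2 ratio of -0.54, with 18 of 20 ratios below 0. Called lower were 3 of the markers (Syce3, Spo11 and Syce1), beside 11.0% of all measured genes. The median of the markers was -1.50 with Pld6_WT as the control, when 20 of 20 were called lower. The Pld6 line had a median of -0.69 against its own control.

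Later stages of spermatogenesis gave the lowest ratios. Of 16 measured pachytene markers, 15 were called lower, with a median log2 ratio of -2.97. Of 20 measured spermatid markers 18 were called lower, with a median of -4.38. The share called lower of all measured genes was 11.0%. Mybl1 (0.19), which turns on pachytene genes and is itself expressed before pachytene, was the pachytene marker not called. Ldhc, the lactate dehydrogenase of the male germ line, was at 623 FPKM in Dnmt3L_Het and 2.80 FPKM in Dnmt3L_KO, 223-fold lower (189 to 263). Pgk2, its counterpart among the phosphoglycerate kinases, was at 87.7 and 0.258 FPKM. Hspa2, a chaperone present from early meiosis on, was at 151 and 43.2 FPKM, one of the smaller differences (-1.79).

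The protamines and transition proteins, which replace histones in elongating spermatids, were among the 12 lowest genes of the table. Prm2 had 30188 fragments in Dnmt3L_Het and 3 in Dnmt3L_KO, levels of 1135 and 0.154 FPKM, a ratio of 7347 with a counting interval of 2514 to 35628. Prm1 was at 2372 and 1.81 FPKM, 1308-fold lower (817 to 2246). Tnp2 was at 1255 and 0.607 FPKM, 2069-fold lower (1125 to 4315). These 3 genes lie next to Prm3 in a cluster at chr16:10787935-10796823, whose 4 members had a median log2 ratio of -9.67. Tnp1, on chromosome 1, was at 2007 and 7.83 FPKM, 256-fold lower (207 to 322). The levels in Pld6_WT were far under those in Dnmt3L_Het, at 8.93 FPKM for Prm2, 16.3 FPKM for Prm1, 14.2 FPKM for Tnp2 and 35.5 FPKM for Tnp1. Against Pld6_WT the spermatid list had a median of -2.72 and 18 genes called lower.

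The promoters of these genes are shown because their levels went together. All are RefSeq windows of GRCm38.p6, again from 250 bases before to 50 bases after the start, with CG in capitals. Prm1 (chr16:10796774-10797073), Prm2 (chr16:10792056-10792355), Tnp2 (chr16:10788606-10788905) and Tnp1 (chr1:73015850-73016149) lie on the minus strand.
Prm1: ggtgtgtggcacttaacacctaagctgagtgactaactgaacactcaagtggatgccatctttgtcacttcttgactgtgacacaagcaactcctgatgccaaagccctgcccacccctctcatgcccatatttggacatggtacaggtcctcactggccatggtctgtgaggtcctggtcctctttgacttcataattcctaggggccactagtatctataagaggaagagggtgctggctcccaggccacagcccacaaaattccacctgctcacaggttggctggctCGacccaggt
Prm2: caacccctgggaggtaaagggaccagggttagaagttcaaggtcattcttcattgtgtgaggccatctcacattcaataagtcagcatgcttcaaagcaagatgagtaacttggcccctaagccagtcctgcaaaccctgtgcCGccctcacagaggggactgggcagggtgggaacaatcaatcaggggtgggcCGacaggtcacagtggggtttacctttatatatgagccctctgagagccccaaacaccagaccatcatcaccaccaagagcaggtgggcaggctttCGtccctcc
Tnp2: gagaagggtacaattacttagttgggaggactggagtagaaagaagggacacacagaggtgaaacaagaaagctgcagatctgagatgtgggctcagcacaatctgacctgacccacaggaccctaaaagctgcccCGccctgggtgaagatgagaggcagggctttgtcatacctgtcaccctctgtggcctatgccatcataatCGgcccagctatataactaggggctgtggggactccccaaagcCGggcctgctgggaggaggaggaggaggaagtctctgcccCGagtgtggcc
Tnp1: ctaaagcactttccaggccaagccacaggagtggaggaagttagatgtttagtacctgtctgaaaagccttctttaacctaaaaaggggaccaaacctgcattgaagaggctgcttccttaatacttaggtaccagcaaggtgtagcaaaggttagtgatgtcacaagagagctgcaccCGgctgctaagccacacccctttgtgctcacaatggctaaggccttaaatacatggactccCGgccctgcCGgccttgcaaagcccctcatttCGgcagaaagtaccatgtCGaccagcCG
They held 1, 3, 4 and 6 CpGs in this order, each below the median of 7 over all windows. Of all windows, 14.1%, 31.4%, 38.0% and 47.9% held as few or fewer, in the same order. In the search of both strands, the Prm2 window held TATAAA only on the strand opposite to the printed one. The printed strand reads TTTATA there.

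Transcription factors of pachytene spermatocytes and spermatids were also mostly lower. Of 20 measured factors, 11 were called lower and 0 higher, beside 11.0% lower and 3.69% higher of all measured genes. The list had a median log2 ratio of -1.24. Spz1, a testis bHLH-zip factor, had 8031 fragments in Dnmt3L_Het (88.4 FPKM) and 0 in Dnmt3L_KO, at least 1955-fold lower. Fhl5, the coactivator of CREM in the testis, had 1648 and 0 fragments, at least 401-fold lower. Crem itself was at 28.0 and 6.71 FPKM, 4.18-fold lower (3.84 to 4.56), and Rfx2, a factor of spermatid genes, at 22.4 and 3.67 FPKM (log2 ratio -2.32). Sox30, Tcfl5, Ovol1 and Tbpl1 were lower with ratios from -1.42 to -1.16. Rfx3 (0.44) and Crebl2 (0.50), which are widely expressed, had the highest ratios on the list.

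**Figure D3:**
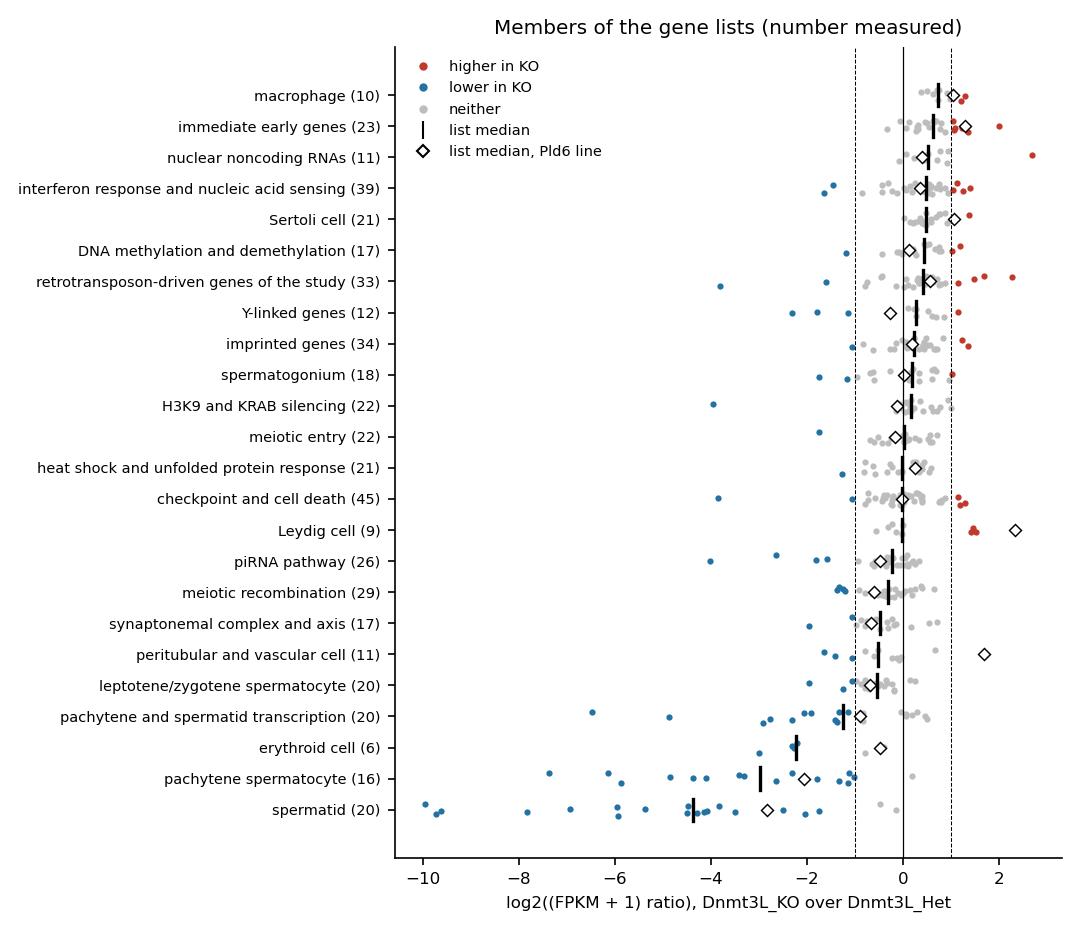
The log2 ratio of every measured member of the 24 gene lists, with the number of measured members behind each name and the lists ordered by their median (black bar). Dashed lines mark a 2-fold difference, and open diamonds give the median of the same list in Pld6_KO against Pld6_WT. The spermatid, pachytene and erythroid lists stand lowest, at -4.38, -2.97 and -2.24.

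Among the 12 lowest genes of the whole table (at least 50 fragments, short RNAs left out), the protamine and transition protein genes and Ldhc took 5 places. Of the others, Smcp, a protein of the sperm mitochondrial capsule, had 6640 fragments in Dnmt3L_Het (149 FPKM) and 0 in Dnmt3L_KO, at least 1616-fold lower. Gsg1, a germ cell-specific membrane protein, had 9498 and 0 fragments, at least 2312-fold lower. Cypt12, of a spermatid gene family, had 2809 and 0 fragments, at least 684-fold lower, and 1700015G11Rik had 1526 and 0, at least 371-fold lower. Hrasls5, a phospholipase of the testis, was at 190 and 0.1 FPKM. The noncoding RNAs Rbakdn and 1700027A15Rik had 6328 and 2107 fragments in Dnmt3L_Het and 1 fragment each in Dnmt3L_KO. These genes were also present in Pld6_WT, from 1.98 FPKM for 1700015G11Rik to 304 FPKM for Ldhc. In all, 530 of the 1942 lower genes had 0 fragments in Dnmt3L_KO.

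The 12 highest genes were a mixed group, and several are uncertain. Erdr1, at the distal end of the X chromosome, was at 85.3 FPKM in Dnmt3L_Het and 1261 FPKM in Dnmt3L_KO, 14.8-fold higher (14.2 to 15.3). Beside it, Mid1, a ubiquitin ligase gene that crosses the pseudoautosomal boundary, was at 1.61 and 20.7 FPKM, 12.8-fold higher (11.5 to 14.4). G530011O06Rik, a noncoding RNA inside the span of Mid1, was at 0.884 and 14.8 FPKM, 16.8-fold higher (14.0 to 20.3). These 3 genes lie within chrX:169685199-170018797, Mid1 and G530011O06Rik overlap, and Erdr1 has copies that share reads. They are given as uncertain for that reason. Erdr1 was also higher in Pld6_KO (207 FPKM) than in Pld6_WT (57.9 FPKM), and Mid1 was at 6.18 and 4.67 FPKM there.

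Malat1, an abundant nuclear noncoding RNA, was at 23.6 FPKM in Dnmt3L_Het and 156 FPKM in Dnmt3L_KO, 6.61-fold higher (6.47 to 6.75), with 37.9 FPKM in Pld6_KO and 32.3 FPKM in Pld6_WT. It was the only one of 11 measured nuclear noncoding RNAs to pass the limit, beside 3.69% higher of all measured genes. Neat1 was at 4.72 and 9.69 FPKM (log2 ratio 0.90) and Tug1 at 19.9 and 32.7 FPKM (0.69); the list had a median of 0.52.

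Orm1, an acute phase plasma protein, was at 1.82 and 14.0 FPKM, 7.69-fold higher (5.91 to 10.1). Pla2g4b, a cytosolic phospholipase, had 10 fragments in Dnmt3L_Het and 704 in Dnmt3L_KO, levels of 0.0414 and 4.06 FPKM, and was at 1.83 FPKM in Pld6_WT. Dynlt1f, one of several near-identical dynein light chain genes, was at 0.64 and 6.93 FPKM. The pseudogenes Gm5512 (3 and 312 fragments, a ratio of 127 with a counting interval of 45.5 to 548) and Speer8-ps1 (0.955 and 8.79 FPKM) and the galectin Lgals6 (0 and 128 fragments) have close copies too, so their levels are uncertain.

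Wfdc18 and Gm15023 had 0 fragments in Dnmt3L_Het. Wfdc18, a secreted protein with a whey acidic protein domain, had 140 fragments in Dnmt3L_KO (8.64 FPKM), at least 63.9-fold higher. It was at 0 FPKM in Pld6_KO and under 0.1 FPKM in Pld6_WT, so Dnmt3L_KO stood alone. Gm15023, on the X chromosome, had 553 fragments in Dnmt3L_KO (6.49 FPKM), at least 252-fold higher, but it was at 9.41 FPKM in Pld6_WT, and its log2 ratio against that control was -0.48. The promoter of Wfdc18 (chr11:83708754-83709053, plus strand, GRCm38.p6) is shown with CG in capitals, as the gene with the highest ratio among those at 0 in Dnmt3L_Het, short RNAs aside.
Wfdc18: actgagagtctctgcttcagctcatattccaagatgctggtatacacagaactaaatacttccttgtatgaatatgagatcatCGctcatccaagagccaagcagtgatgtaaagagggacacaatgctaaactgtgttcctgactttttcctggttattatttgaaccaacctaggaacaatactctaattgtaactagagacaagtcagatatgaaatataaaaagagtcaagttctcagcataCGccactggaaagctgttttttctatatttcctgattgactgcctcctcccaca
The Wfdc18 window held 2 CpGs and TATAAA, and 23.3% of all windows held 2 CpGs or fewer. In all, 41 of the 649 higher genes had at most 3 fragments in Dnmt3L_Het, 32 of them 0. Besides Reg2, Gc, Zbp1 and the genes above they include secreted proteins of other tissues, such as the beta-defensins Defb11 and Defb48 (0 fragments in Dnmt3L_Het, 24 and 35 in Dnmt3L_KO) and the trypsin inhibitor Spink3 (0 and 41), the olfactory receptor Olfr39 (0 and 107) and the potassium channel Kcna3 (0 and 157). Defb48, Spink3 and Olfr39 were also at 0 FPKM in both libraries of the Pld6 line. Others of the 41 were above their Dnmt3L_KO level in the Pld6_WT control. Pet117 was at 5.96 FPKM in Dnmt3L_KO and 6.64 FPKM in Pld6_WT, and Cldn20 at 1.06 and 3.17 FPKM.

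Higher genes that were already well expressed were mostly long. Of the genes called higher, 164 were at 10 FPKM or more in Dnmt3L_Het and were not short RNAs; the limit of 10 FPKM was chosen after the values had been seen. Their median transcript length was 5705 bp, and 103 of 163 with a known length were longer than 5000 bp. After Erdr1 and Malat1, the highest were Syne2, the giant nuclear envelope protein nesprin-2, at 12 and 47.1 FPKM (3.91-fold, 3.84 to 3.98), and Trank1, at 27.8 and 97 FPKM (3.49-fold, 3.43 to 3.55). Their transcripts measure 21704 and 10520 bp. Fat1, a protocadherin, was at 10.2 and 34.2 FPKM, and the neuronal scaffold gene Ppp1r9a at 15.6 and 49.8 FPKM. The kinesin Kif21a was at 16.6 and 51.3 FPKM and the ion transporter Slc26a7 at 14.5 and 47.8 FPKM, and both were under 2 FPKM in Pld6_WT. The pseudogenes 2610005L07Rik and 6820431F20Rik and the centrosomal gene Sfi1 were also among the 12, with log2 ratios of 1.68, 1.55 and 1.56; their Pld6_KO levels of 39.0, 137 and 42.5 FPKM were likewise above those of Pld6_WT, 14.1, 40.9 and 14.7 FPKM.

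Calls differed with transcript length across the whole table. Measured genes were split into 5 length classes of near-equal number by their longest annotated transcript. In the shortest class (67 to 1689 bp), 27.9% of genes were called lower and 3.13% higher, and in the longest class (5008 to 123179 bp) 2.70% were called lower and 8.62% higher. The median log2 ratio went from -0.43 through -0.10, 0.05 and 0.18 to 0.38. In the Pld6 line the medians of the same classes went from -0.20 to 0.10. The median length was 4736 bp for higher genes, 1654.5 bp for lower genes and 3112 bp for all measured genes. The lists differed in length as well, with a median of 1452 bp for the spermatid markers, 2094 bp for the L/Z markers, 3920 bp for the DNA methylation list and 4019 bp for the H3K9 list. The part of length in the results was not tested.

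**Figure D4:**
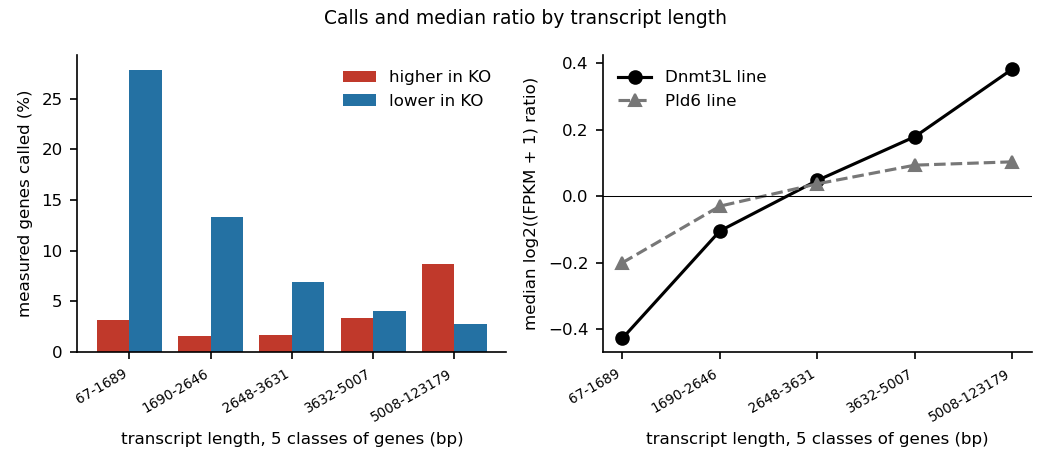
Left, percent of measured genes called higher (red) or lower (blue) in each class of transcript length; right, median log2((FPKM + 1) ratio) in the same classes for Dnmt3L_KO against Dnmt3L_Het (circles) and Pld6_KO against Pld6_WT (triangles). The share of lower genes goes from 27.9% in the shortest class to 2.70% in the longest.

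Genes of cell death, innate sensing and stress were considered next. Of 45 measured checkpoint and cell death genes, 3 were called higher and 2 lower, with a median log2 ratio of -0.02, beside 3.69% higher and 11.0% lower of all measured genes. All 3 higher genes belong to the BCL2 family. Bmf and Bcl2l11 (BIM), which promote apoptosis, were at 1.66 and 5.45 FPKM (3.28-fold, 2.95 to 3.66) and at 4.33 and 10.7 FPKM (2.48-fold, 2.30 to 2.67). Bcl2l2 (BCL-W), which opposes it, was at 25.5 and 58.6 FPKM. Bcl2l14, of the same family, was 158-fold lower (83.2 to 347), and Fas, the death receptor, was at 2.07 and 0.476 FPKM, with a log2 ratio of -1.06 that became 0.06 against Pld6_WT. The 15 genes of DNA damage signalling had 0 calls and a median of 0.02; Trp53 was at 28.7 and 50.6 FPKM, Atm at 13.2 and 23.8 FPKM and Cdkn1a, the p53 target, at 12.8 and 8.22 FPKM.

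Of 39 measured genes of the interferon response and nucleic acid sensing, 31 had ratios above 0, 4 were called higher and 2 lower, beside the same shares of all measured genes, and the median was 0.47. Usp18, an interferon-induced protease, was at 0.952 and 4.14 FPKM, 4.35-fold higher (3.45 to 5.52). Zbp1, a sensor of Z-form nucleic acids, had 0 and 38 fragments, at least 17.3-fold higher. Trim25, a ubiquitin ligase of RNA sensing, was at 6.11 and 14.4 FPKM. The genes that usually respond most to interferon did not pass the limit, with Ifit1 at 0.19 and 0.0952 FPKM, Isg15 at 1.45 and 2.40 FPKM and Rsad2 at 0.718 and 1.92 FPKM. The RNA sensor regulator Dhx58 was 5.21-fold lower (4.26 to 6.44) and Rnaseh2a, a subunit of RNase H2, 2.81-fold lower (2.68 to 2.94). Macrophage markers, which can carry the same genes, had a median of 0.73 and summed levels of 95.8 FPKM in Dnmt3L_Het and 177 FPKM in Dnmt3L_KO.

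Immediate early genes, which respond to signals and to handling of cells within minutes, had a median of 0.63. Of 23 measured, 6 were called higher and 0 lower, beside 3.69% higher and 11.0% lower of all measured genes. Atf3 was at 5.38 and 24.4 FPKM, 4.54-fold higher (4.14 to 4.97), and Egr1, Fosb, Jun, Klf6 and Nr4a1 had log2 ratios from 1.03 to 1.35. The same list had a median of 1.29 in the Pld6 line. Of 21 heat shock and unfolded protein response genes, only Sdf2l1 was called, at 61.2 and 24.9 FPKM, and the median was -0.02.

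Markers of somatic cells differed by type. Over all measured genes, 3.69% were called higher and 11.0% lower, which stands beside each count in this paragraph. Of 21 Sertoli cell markers, 21 had log2 ratios above 0 and 2 were called higher, with a median of 0.47. Kitl, the ligand through which Sertoli cells act on spermatogonia, was at 15.6 and 42.2 FPKM, 2.70-fold higher (2.61 to 2.79), and Fshr, the FSH receptor, at 12.1 and 26.1 FPKM. Against Pld6_WT the Sertoli median was 4.32. Of 9 Leydig cell markers, 3 were called higher: Lhcgr (4.02-fold, 3.46 to 4.67), Hsd3b6 (log2 ratio 1.46) and Star (1.41), and the median was -0.02. Of 11 peritubular and vascular markers, 3 were called lower: Tagln (-1.64), Cnn1 (-1.42) and Des (-1.07). These are proteins of smooth muscle and myoid cells, and Acta2 of the same cells was at 360 and 206 FPKM (-0.80). Each of the 3 turned positive with Pld6_WT as the control. Of 6 measured erythroid genes, 4 were called lower, all of them globins, with a median of -2.24; Hba-a1 was at 308 and 63.3 FPKM. Globin copies share reads, and the erythroid median was 2.15 against Pld6_WT, where Hba-a1 was at 9.39 FPKM.

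The sex chromosomes differed from the autosomes in their shares of calls. On the X chromosome 49 of 808 measured genes (6.06%) were called higher and 117 (14.5%) lower, beside 3.58% and 10.7% on the autosomes. On the Y chromosome 1 of 35 was called higher and 19 (54.3%) lower. The Y chromosome split by arm. Of the 9 measured short arm genes on the list, 1 was called higher and 9 had ratios above 0, with Kdm5d, a histone demethylase, at 2.84 and 7.50 FPKM (2.64-fold, 2.44 to 2.86) and the zinc finger gene Zfy2 at 4.19 and 8.31 FPKM. Of the 3 measured long arm genes, which are multicopy and active in spermatids, 3 were called lower. Sly was 12.5-fold lower (7.75 to 21.3), and Ssty1 and Ssty2 were at 1.22 and 2.54 FPKM in Dnmt3L_Het and 0 and 0.0208 FPKM in Dnmt3L_KO. Reads of these families are shared among copies, so values of single members are uncertain.

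**Figure D5:**
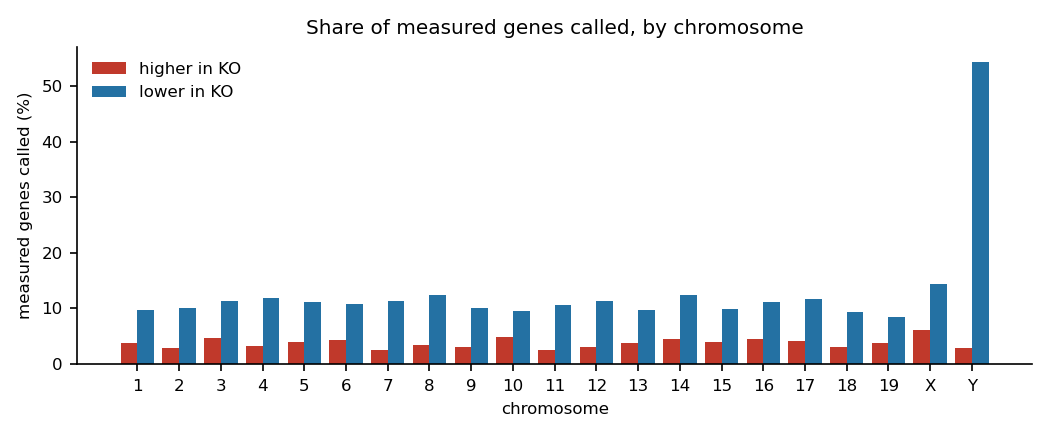
Percent of the measured genes of each chromosome called higher (red) or lower (blue) in Dnmt3L_KO. Autosomes lie close together for lower genes, from 8.48% on chromosome 19 to 12.4% on chromosomes 8 and 14, and the Y chromosome, with 35 measured genes, stands at 54.3%.

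Some called genes were neighbors. Of 1924 lower genes with a position, 557 (29.0%) lay next to another lower gene within 500 kb with no other measured gene between, against 75 of 646 higher genes (11.6%). Lower genes made up 11.0% of all measured genes and higher genes 3.69%, so a neighbor with the same call is also more frequent among lower genes for their number alone. Runs of 3 or more numbered 41 for lower genes and 3 for higher genes. The longest, with 9 members, lay at chrX:3076920-4954077 and held multicopy genes such as Gm14346 and Gm3763 (median log2 ratio -2.10). Other runs were tandem families of the testis: the serine proteases Prss42 to Prss46 on chromosome 9 (-1.74, with Myl3), the Iqcf genes on the same chromosome (5 members, -5.39) and the sperm surface genes Adam18, Adam3, Adam5 and Adam32 on chromosome 8 (-4.98, with 1810011O10Rik). The 3 runs of higher genes were Ccdc170, Esr1 and Syne1 on chromosome 10 (median 1.18), the aldo-keto reductases Akr1c13, Akr1c19 and Akr1c12 on chromosome 13 (1.25) and Dab2, Fyb and Rictor on chromosome 15 (1.27).

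The calls were set beside those of the Pld6 line, which shares no library with them. In Pld6_KO against Pld6_WT, 1078 of 16632 measured genes (6.48%) were called higher and 1417 (8.52%) lower. Of the 1942 genes lower in Dnmt3L_KO, 1196 (61.6%) were also called lower in Pld6_KO, which is 84.4% of the lower genes of that line, and 34 were called higher there. Pachytene and spermatid genes were among the genes lower in both lines, with list medians of -2.06 and -2.84 in the Pld6 line. Of the 649 genes higher in Dnmt3L_KO, 103 (15.9%) were also called higher in Pld6_KO, which is 9.55% of the higher genes of that line, and 14 were called lower. Reg2, Gc, Erdr1, Atf3 and Fosb were among the 103.

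With Pld6_WT as the control in place of Dnmt3L_Het, 2834 of 16996 measured genes (16.7%) were called higher and 1976 (11.6%) lower. The comparisons share the Dnmt3L_KO library. On the retrotransposon list, 9 genes were then called higher and 5 lower, with a median of 0.33; Reg2, Gc, E330017A01Rik and Olfr1372-ps1 had log2 ratios of 2.27, 1.69, 1.47 and 1.41 and stayed past the limit.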

How the data were processed

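RNA was measured in 4 libraries of cells sorted by FACS as L/Z spermatocytes, by stranded polyA RNA sequencing with single-end reads of 50 bp. There was 1 library for each genotype. Per the submitters' processing notes, the authors aligned reads to mm10 with TopHat and ran Cuffdiff; versions are not given in the sources used here. The deposited table holds, for each gene and genotype, an estimated count of fragments and an FPKM value, both made by the authors with Cuffdiff; the counting is not stated to use strand. Whole-table totals of the estimated counts ranged from 30439943 to 63875934 fragments a library. Of the table, its gene names, genotypes, status, fragments and FPKM alone were read.

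FPKM values were compared as log2((FPKM + 1) ratio) of Dnmt3L_KO over Dnmt3L_Het among genes with at least 20 fragments in either library, and a gene at 2-fold or more was called. No test was run, since each side had 1 library. Fragment counts gave exact 95% intervals of a ratio, and 3 fragments stood for a count of 0; these cover counting error only. Genes with a failed value in either library (18, of which 1 was called) were kept. Named were the targeted genes, the 12 highest and 12 lowest called genes with at least 50 fragments (short RNAs left out), the extremes and defining members of each of 24 lists, and called genes of the retrotransposon list. Genes named outside this rule, such as the well expressed long genes, the genes with at most 3 fragments in Dnmt3L_Het and the members of runs, were chosen after their values had been seen. The comparison and the lists were chosen with earlier results of these data known. Alternatives were another pseudocount, filter, limit, scaling and control. The TMM and median-of-ratios alternatives used scaled fragment counts, not divided by transcript length, in place of FPKM. The scaling factors came from edgeR 4.0.16 (TMM) and DESeq2 1.42.0 (median of ratios) in R 4.3.3, used for nothing else; the rest used Python 3.11.15 with NumPy 2.4.6, pandas 2.3.3, SciPy 1.17.1 and Matplotlib 3.10.9. The steps were checked on simulated data. Gene positions and lengths came from mouse annotations of the same assembly, and transcript lengths were found for 98.9% of measured genes. Promoter windows matched 78.2% of measured genes, under the 80% needed, so a comparison of promoter composition between called genes is void and is not given.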

Additional observations from a re-analysis of the deposited data

Results flagged for a closer look

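List medians of the log2 ratio were compared between the Dnmt3L line (Dnmt3L_KO against Dnmt3L_Het) and the Pld6 line (Pld6_KO against Pld6_WT). In 3 lists they lay on opposite sides of 0 and more than 0.1 from it in both lines. With 1 library for each genotype, none of these differences was tested. The peritubular and vascular cell list had a median of -0.53 in the Dnmt3L line and 1.69 in the Pld6 line. The H3K9 and KRAB silencing list had medians of 0.15 and -0.13, and the Y-linked genes had medians of 0.26 and -0.28. Other lists also differed in sign but lay within 0.1 of 0 in the Dnmt3L line. They were the Leydig cell list (-0.02 and 2.32), meiotic entry (0.02 and -0.17) and heat shock and unfolded protein response (-0.02 and 0.24).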

How the results depend on the processing

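No paired analysis was possible because each genotype had 1 library, so there were no replicates to pair or leave out. Against 649 higher and 1942 lower genes, a pseudocount of 0.1 FPKM gave 1691 higher and 2945 lower, values raised to 3 fragments gave 1988 and 3177, and a 3-fold limit gave 77 and 1286. The number of higher genes was 1080 with TMM scaling, where fragment counts not divided by transcript length replaced FPKM. Unit and scaling thus changed together there. The number was 3829 when ratios were centred on the L/Z markers and 2834 with Pld6_WT as the control. The median log2 ratio was below 0 for 12 of 24 lists, and for 4 of them after that centring. With Pld6_WT as the control, the direction turned for Cnn1 (0.88), Des (0.93), Fas (0.058), Gm15023 (-0.48), Hba-a1 (2.63), Hbb-b1 (2.27), Hbb-bt (2.15), Tagln (0.31) and Tet3 (-0.078). The list medians that took the opposite sign with that control were those of erythroid (2.15), Leydig (2.86) and peritubular and vascular cells (0.39), heat shock and unfolded protein response (0.27), DNA methylation and demethylation (-0.15), H3K9 and KRAB silencing (-0.37), Y-linked genes (-0.63), imprinted genes (-0.10), meiotic entry (-0.61) and spermatogonia (-0.70). The cause of these differences was not tested. Over 133 named genes and 1064 alternative values, the other 1055 did not turn a call to the opposite direction. The alternatives that change only the filter on fragments leave each ratio as it was. Another pseudocount keeps the sign of every ratio. Centring on the L/Z markers, with their median of -0.54, shifted ratios too little to turn a called gene. The values of these alternatives, 133 for each, could not turn and say nothing about stability. Only a change of sign in a called gene was counted as a turn. Leaving out short RNAs, an alternative chosen after seeing the data, gave 628 higher and 1929 lower genes. Depth limits genes near 20 fragments, where the counting intervals are wide.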
